A study of Homo sapiens with 23 samples.

Results

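The clustered protocadherins are cell-surface adhesion proteins encoded by the alpha, beta and gamma clusters, which lie next to each other on human chromosome 5. Members were taken by symbol (PCDHA, PCDHB, PCDHGA, PCDHGB or PCDHGC followed by digits, without pseudogenes), which gave 51 of 28105 genes in the tables: 13 alpha, 16 beta and 22 gamma genes. PCDHAC1 and PCDHAC2, the C-type alpha genes, fall outside that rule and are named only where the alpha values turn on them. Their RNA was measured by poly(A)-selected RNA-seq in the human colorectal cancer line HCT116, in 8 libraries: 2 labelled MLL4 KO, 2 labelled WT, 2 labelled BAP1 KO and 2 labelled control. The KMT2D gene encodes MLL4, which methylates histone H3 at enhancers (H3K4me1), and BAP1 is a deubiquitinase that acts on histone H2A. MLL4 KO was compared with WT, and BAP1 KO with control, whose labelled genotype is WT too. The names of the deposited control and BAP1 KO tables carry osTir1, a plant receptor for induced protein degradation, while those of WT and MLL4 KO do not, so the groups without a knockout may be different derivatives of the line. The 15 ChIP-seq samples of the series were not analysed here.

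In each alpha and gamma gene, a large variable exon with its own promoter encodes the extracellular and transmembrane parts of the protein and is spliced to constant exons shared by the whole cluster. Each beta gene is a single exon with its own promoter. In neurons, each cell transcribes a small and largely random set of these promoters, and the resulting combinations of proteins bind only matching combinations on other membranes, which lets a neuron tell its own branches from those of others. Promoter choice is known to depend on CTCF and cohesin, on distal enhancers and on DNA methylation, and methylation across these clusters has been described in tumours, including colorectal ones. Most of these promoters hold a conserved sequence element with a CGCT core, which is printed here for the 5 beta genes that entered the test and for the alpha and the gamma gene with the highest full-row level in their cluster. The beta promoters are shown because the beta values rest on them, and the other 2 to show the element in the neighbouring clusters, where the levels of full rows come mostly from shared exons. The windows are 60 bases on the plus strand of chromosome 5 (RefSeq, GRCh38.p14), and capitals mark the CGCT core.
PCDHB9, chr5:141187062-141187121: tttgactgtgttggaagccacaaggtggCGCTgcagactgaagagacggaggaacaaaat
PCDHB10, chr5:141192287-141192346: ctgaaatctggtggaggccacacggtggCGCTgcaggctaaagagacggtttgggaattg
PCDHB13, chr5:141213853-141213912: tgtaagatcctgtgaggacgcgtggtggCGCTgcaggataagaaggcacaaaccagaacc
PCDHB14, chr5:141223251-141223310: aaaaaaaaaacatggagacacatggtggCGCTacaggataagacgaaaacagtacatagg
PCDHB15, chr5:141245302-141245361: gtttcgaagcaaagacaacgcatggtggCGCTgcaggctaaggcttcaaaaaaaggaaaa
PCDHA11, chr5:140868871-140868930: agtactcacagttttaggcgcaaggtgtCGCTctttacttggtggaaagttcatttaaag
PCDHGA10, chr5:141412919-141412978: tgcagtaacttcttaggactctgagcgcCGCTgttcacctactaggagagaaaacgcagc

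RefSeq promoters (250 bases before to 50 after the annotated start) were found for 45 of the 51 members, and none was looked at for PCDHA3, PCDHA13, PCDHB6, PCDHB11, PCDHGA12 and PCDHGC5. The longer form TGNCGCT or CGNCGCT, whose letters were chosen after these promoters had been read, was present on either strand in 41 of 45 member promoters (91.1%), against 26.1% of 35116 promoters in the table. It was present in 10 of 11 alpha, 13 of 14 beta and 18 of 20 gamma promoters, and in all of these it read in the direction of transcription. The 4-letter core CGCT alone, which the longer form contains, was present in 44 of 45 member promoters, against 70.0% of all promoters. Among 40 member promoters with a match upstream of the start, the core lay 11 to 95 bases before it in all but PCDHGB2, with a median of 58 over the 40, and 35 of the 40 lay between 35 and 80 bases before it. For PCDHGB2 the core lay 199 bases before the start used in the promoter table and 57 bases before the start of its gene in the gene table. A match describes these letters only and does not show that a factor binds there. PCDHA9, PCDHB1, PCDHGB7 and PCDHGC4 had no match to the longer form in the window.

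Libraries held 24817085 to 42220059 gene counts. Whether libraries of a group came from separate cultures or clones is not stated, so p-values measure only the spread between these libraries. KMT2D messenger RNA was 280 and 406 CPM (counts scaled to library size with TMM factors) in MLL4 KO, against 309 and 371 CPM in WT. BAP1 messenger RNA was 67.4 and 57.4 CPM in BAP1 KO, against 56.7 and 62.1 CPM in control. Neither was lower in its own knockout, so expression gives no check of the knockout labels, on which every direction given here rests. All 8 epithelial and colorectal markers checked (such as EPCAM, KRT8 and CDX2) were above 1 CPM in every group. They summed to 4654 to 4740 CPM in MLL4 KO and 2948 to 3067 CPM in WT, and to 2082 to 2487 CPM in BAP1 KO and 4401 to 4425 CPM in control, mostly from the keratin genes KRT8 and KRT18. These sums lay in the same direction as the beta protocadherin sums in both comparisons, but not every marker did. In MLL4 KO against WT, mean EPCAM (114 against 248 CPM), ELF3 (30 against 54.9), CLDN4 (92.9 against 141) and VIL1 (13.6 against 15.3) were lower. In BAP1 KO against control, VIL1 was higher (16.5 against 12.2 CPM). The 7 neuronal markers checked summed to 222 to 235 CPM in MLL4 KO and 168 to 193 CPM in WT, with STMN2 and NEFL at 0 in WT. They summed to 142 to 150 CPM in BAP1 KO and 105 to 110 CPM in control, with STMN2 and NEFL at 0 in both. These neuronal sums came mostly from TUBB3 in every group, so they chiefly reflect that gene. Not every neuronal marker shared their direction. Mean RBFOX3 was lower in MLL4 KO than in WT, and mean MAP2 was lower in BAP1 KO (2.87 CPM) than in control (17.8 CPM). The part of either marker list in the protocadherin values was not tested. In bulk RNA, fewer cells that express a gene and less RNA per cell cannot be told apart.

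Because a read in a shared exon was counted in the row of every gene that uses it, the alpha rows are close to a single measurement, and so are most gamma rows. The constant part of a cluster was taken as the lowest full-length row in each library. In the alpha cluster 78 of 104 values (13 genes in 8 libraries) equalled that constant part exactly, and the largest excess over it was 8 reads. In the gamma cluster the constant part made up a median of 98.1% of a row, and apart from PCDHGA10, with up to 377 reads of its own, no gene exceeded it by more than 65 reads. The deposited tables also list, for each alpha and gamma gene, a transcript without the constant exons. Its row was taken as the gene's listed row with the lowest mean count and used as a measure of the variable exon. It was shorter than the full transcript for 29 of the 35 genes, and its length could not be read for 4 with no read in it (PCDHA3, PCDHA6, PCDHA8 and PCDHA9). The row was longer for PCDHA4 (10526 bases, against 5373 for the full transcript) and PCDHA10 (12344 against 5408), so these rows reach well beyond the variable exon. Some shorter rows may reach beyond it too, with lengths up to 4548 bases for PCDHGA2. The PCDHGA11 row (3629 bases) held 29 reads in BAP1 KO replicate 1, where the full row minus the constant part gave 21. Beta rows share no exon. Beta genes resemble each other in sequence, and the sources used here do not give how reads that align to several of them were counted, so the split between neighbouring beta genes is uncertain.

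In the MLL4 KO libraries the summed reads of the beta genes were above those in WT, and PCDHB13 and PCDHB14 rose past the threshold. PCDHB15 passed it too, but entered the test only through its MLL4 KO libraries. Reads of all 16 beta genes summed to 8.74 and 4.64 CPM in MLL4 KO and to 2.06 and 1.81 CPM in WT, which is 384 and 154 reads against 53 and 58 reads. The mean was 6.69 ± 2.90 CPM in MLL4 KO and 1.93 ± 0.172 CPM in WT (SD, n = 2 each). At least 1 read was found for 15 and 15 of the 16 genes in MLL4 KO and for 11 and 12 in WT. Both MLL4 KO libraries lay above both WT libraries for 10 of 16 beta genes and below for 0, where 25.9% of the 22694 genes with a read lay above and 24.5% below. The 10 genes were PCDHB3, PCDHB4, PCDHB8, PCDHB10, PCDHB11, PCDHB12, PCDHB13, PCDHB14, PCDHB15 and PCDHB16. Some were separated by very few reads, as PCDHB3 with 4 and 1 in MLL4 KO against 0 and 0 in WT, and PCDHB16 with 9 and 2 against 1 and 1. The plot of beta reads by library shows that most beta reads came from the end of the cluster nearest the gamma genes, from PCDHB9 to PCDHB15.

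**Figure D1:**
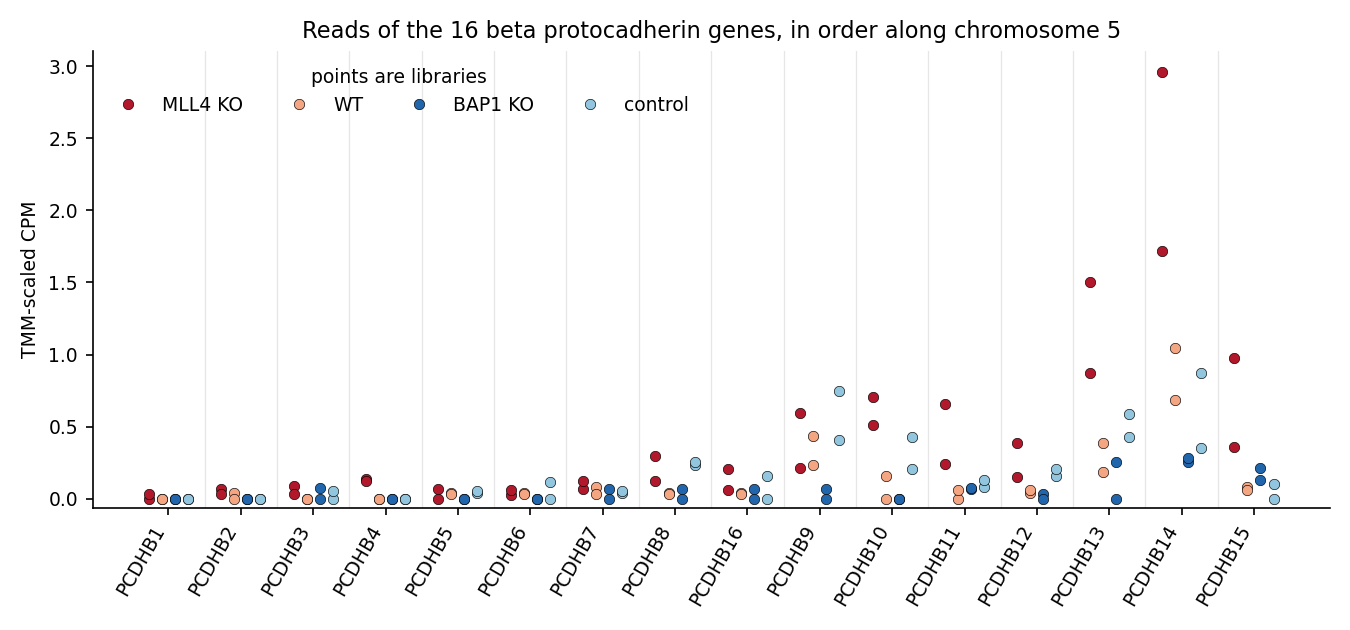
Level of each of the 16 beta protocadherin genes (TMM-scaled CPM, y axis) in each library, with genes in their order along chromosome 5 (x axis). Each point is a library, in the order MLL4 KO, WT, BAP1 KO and control within a gene, and PCDHB14 reached 2.96 CPM in an MLL4 KO library while PCDHB1 to PCDHB7 stayed near 0.

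PCDHB14, the beta gene with the highest mean RPKM (0.205 over the 8 libraries, in reads per kilobase of transcript scaled to library size), had 2.96 and 1.72 CPM in MLL4 KO, against 1.05 and 0.688 CPM in WT. The MLL4 KO libraries lay above both WT libraries and differed from each other by more than the WT libraries did. Its log2 fold change was 1.48 ± 0.43 (SE, n = 2 against 2, adjusted p = 0.0423). PCDHB13, second in mean RPKM at 0.0825, had 1.50 and 0.873 CPM in MLL4 KO, against 0.388 and 0.188 CPM in WT, again with no overlap. It rose by 2.12 ± 0.64 on the log2 scale (adjusted p = 0.0470). PCDHB15 is the last beta gene before the gamma cluster. It had 0.979 and 0.361 CPM in MLL4 KO, against 0.0776 and 0.0625 CPM in WT, with a log2 fold change of 3.28 ± 0.88 (adjusted p = 0.0286). Its MLL4 KO libraries were the only ones at or above the count limit for testing (0.320 CPM before TMM scaling, in at least 2 libraries), so the gene entered the test through the group in which it is high, and its call does not add support. PCDHB15 had 55 reads in MLL4 KO against 4 in WT, a ratio of 10.3 with an exact 95% interval of 3.80 to 39.1 that covers counting error only.

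These 3 genes were the members called, 3 of 40 tested, all higher. In this comparison 19.1% of all 16831 tested genes were called (9.13% higher and 10.0% lower). The 40 include 13 alpha and 22 gamma rows that mostly repeat shared reads, so this share is not one of separate genes. Only 5 of the 16 beta genes had enough reads to be tested (PCDHB9, PCDHB10, PCDHB13, PCDHB14 and PCDHB15), as against all 13 alpha and all 22 gamma rows. PCDHB10 also reached the limit in 2 libraries of MLL4 KO and in no more than 1 of any other group, and PCDHB9 reached it in both control libraries and in 1 library each of MLL4 KO and WT. The calls rest on single libraries: none of the 3 was called without WT replicate 2, when the adjusted p was 0.243 for PCDHB13, 0.222 for PCDHB14 and 0.175 for PCDHB15. None was called without MLL4 KO replicate 1 either, when the values were 0.178, 0.184 and 0.148. Without control replicate 2, which enters only through the shared estimate of spread, the 3 values were 0.0856, 0.0663 and 0.0508. PCDHB13 and PCDHB14 also lost their calls when MLL4 KO replicate 2 was left out (0.0828 and 0.0603) or control replicate 1 was (0.0837 and 0.0646), PCDHB14 without either BAP1 KO library (0.0701), and PCDHB15 without WT replicate 1 (0.0618). The log2 changes stayed between 1.01 and 3.77 when each library was left out in turn, always higher in MLL4 KO.

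PCDHB10 and PCDHB9 were tested and did not pass. PCDHB10 had 0.706 and 0.512 CPM in MLL4 KO, against 0 and 0.156 CPM in WT, a log2 fold change of 2.79 ± 0.89 (adjusted p = 0.0562). That was 48 reads against 5, a ratio of 7.19 with an exact interval of 2.88 to 23.2. PCDHB9 had 0.592 and 0.211 CPM in MLL4 KO, against 0.233 and 0.438 CPM in WT, so its groups overlapped (log2 fold change 0.30 ± 0.69, adjusted p = 0.785). Of the 11 beta genes with too few reads for the test, PCDHB11 had 37 reads in the MLL4 KO libraries together and 2 in WT, a ratio of 13.9 (exact interval 3.58 to 119). PCDHB12 had 22 reads against 3, a ratio of 5.49 (1.65 to 28.7). PCDHB4 had 10 reads in MLL4 KO and none in WT, at least 1.22-fold higher against a floor of 3 reads per library. Each of the remaining 8 had at most 13 reads in any library.

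In the BAP1 KO libraries the summed reads of the beta genes were below those in control, and PCDHB9 fell past the threshold. The 16 genes summed to 0.989 and 0.641 CPM in BAP1 KO and to 2.78 and 2.92 CPM in control, which is 31 and 18 reads against 71 and 114. The mean was 0.815 ± 0.246 CPM in BAP1 KO and 2.85 ± 0.100 CPM in control (SD, n = 2 each). At least 1 read was found for 9 and 4 of the 16 genes in BAP1 KO and for 11 and 11 in control. Both BAP1 KO libraries lay below both control libraries for 8 of 16 beta genes, where 28.8% of genes with a read did so, and above for PCDHB15 alone, where 29.7% did so. The 8 genes were PCDHB5, PCDHB8, PCDHB9, PCDHB10, PCDHB11, PCDHB12, PCDHB13 and PCDHB14. Some were separated by very few reads. PCDHB5 had 0 and 0 reads in BAP1 KO against 1 and 2 in control. PCDHB11 had 2 and 2 against 2 and 5, so library scaling alone set its lower control library apart. The 4 groups kept the same order of beta sums (MLL4 KO, control, WT, BAP1 KO) under TMM, RLE and upper-quartile scaling and with raw library sizes.

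PCDHB9, next among beta genes in mean RPKM at 0.0601, had 0.0638 and 0 CPM in BAP1 KO, against 0.744 and 0.410 CPM in control. Its log2 fold change was -3.88 ± 1.13 (adjusted p = 0.0314). It had 2 reads in both BAP1 KO libraries together and 35 in control, a ratio of 0.0621 with an exact interval of 0.00723 to 0.242. It was the only member called, 1 of 40 tested, where 22.4% of all tested genes were called (12.1% higher and 10.4% lower). The call was lost without either control replicate and without either BAP1 KO replicate, and was kept whichever WT or MLL4 KO library was left out. Each such fit leaves 1 library in a group. Calls over all tested genes also fell without a control or BAP1 KO library, and rose without a WT or MLL4 KO library.

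PCDHB10 had no read in either BAP1 KO library, against 0.431 and 0.205 CPM in control, where it had 19 reads in all. That is at least 3.14-fold lower against a floor of 3 reads per library, and its adjusted p was 0.0602. Its p was 0.0184 with DESeq2 and 0.0370 without WT replicate 1, so its call depends on the fit. PCDHB13 had 0.255 and 0 CPM in BAP1 KO, against 0.431 and 0.590 CPM in control, a log2 fold change of -1.93 ± 0.92 (adjusted p = 0.161). PCDHB14 had 0.255 and 0.285 CPM in BAP1 KO, against 0.353 and 0.872 CPM in control, a log2 fold change of -1.28 ± 0.71 (adjusted p = 0.231). PCDHB15 had 0.128 and 0.214 CPM in BAP1 KO, against 0 and 0.103 CPM in control (log2 fold change 1.39 ± 1.26, adjusted p = 0.463), so it did not share the direction of the other 4.

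The knockout effects on the beta genes were also compared with each other, as the MLL4 KO effect minus the BAP1 KO effect in the same fit. The effects differed for PCDHB10, by 9.07 ± 2.16 on the log2 scale (adjusted p = 0.0237), and for PCDHB13, by 4.05 ± 1.12 (adjusted p = 0.0378). These 2 were the members called, of 40 tested and both positive, while 16.1% of all tested genes were called (7.75% positive and 8.32% negative). The size for PCDHB10 is fitted against a group with no read and is not a measured fold. PCDHB10 reached the count limit in 2 libraries of MLL4 KO and in no more than 1 of any other group. It therefore entered the test through a group in which it is high, and its call does not add support. PCDHB14 had a difference of 2.76 ± 0.83 (adjusted p = 0.0509), PCDHB9 of 4.17 ± 1.38 (adjusted p = 0.0616) and PCDHB15 of 1.89 ± 1.84 (adjusted p = 0.512). The PCDHB10 difference lost its call without either control replicate or either BAP1 KO replicate. The PCDHB13 difference lost it without WT replicate 2, MLL4 KO replicate 1, either control replicate or BAP1 KO replicate 2. Each such fit leaves 1 library in a group. Calls over all tested genes also fell in these fits, except without MLL4 KO replicate 1.

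**Figure D2:**
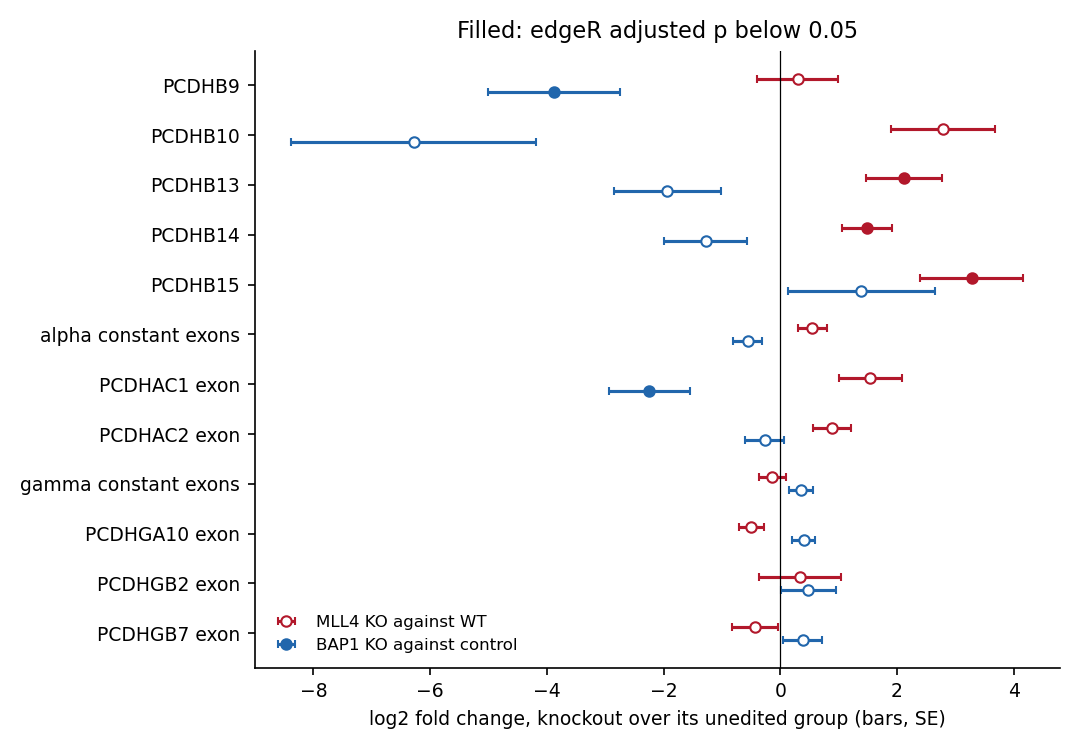
Log2 fold change (x axis, bars are SE) of the 5 tested beta genes and of the constant and variable exons of the alpha and gamma clusters (rows), for MLL4 KO against WT in red and BAP1 KO against control in blue, with filled points for an adjusted p below 0.05. PCDHB13, PCDHB14 and PCDHB15 are filled on the right in red, and PCDHB9 and the PCDHAC1 exon on the left in blue; the PCDHB10 value in BAP1 KO is fitted against libraries with no read.

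For the alpha cluster, whose 13 rows are close to 1 measurement, no row was called in either knockout, although 9 of 13 in MLL4 KO and 10 of 13 in BAP1 KO stood at an unadjusted p below 0.05. The constant exons had 7.01 and 6.57 CPM in MLL4 KO, against 5.62 and 3.75 CPM in WT. Both MLL4 KO libraries were higher, and the WT libraries differed from each other more than the MLL4 KO libraries did. The log2 fold change was 0.55 ± 0.24 (adjusted p = 0.137). The constant exons had 4.63 and 4.42 CPM in BAP1 KO, against 5.76 and 7.46 CPM in control, a log2 fold change of -0.56 ± 0.25 (adjusted p = 0.136). The difference of these effects was 1.11 ± 0.35 (adjusted p = 0.0581). With a single WT library left, the PCDHA1 log2 fold change in MLL4 KO was 0.86 without WT replicate 1 and 0.27 without WT replicate 2. In a fit on the 4 BAP1 KO and control libraries alone, 12 alpha rows were called lower in BAP1 KO (PCDHA1, -0.58, adjusted p = 0.0485). That fit also called 6660 of 16020 tested genes, against 3778 of 16831 in the fit on all 8 libraries.

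Few alpha reads came from the variable exons of the 13 members. Counted as the full row minus the constant part, they held 24 and 21 reads in MLL4 KO, against 20 and 2 in WT, and 3 and 2 reads in BAP1 KO, against 10 and 6 in control. That was between 1.67% and 8.73% of such reads in all alpha genes per library, the rest belonging to PCDHAC1 and PCDHAC2. The rows without constant exons gave 37 and 27 reads in MLL4 KO, against 20 and 2 in WT, and 3 and 2 in BAP1 KO, against 10 and 8 in control. Most of the excess in MLL4 KO lay in the long PCDHA10 row, which had 22 and 6 reads there, where full minus constant gave 8 and 2. PCDHA11, which has the highest mean RPKM among the 13 full rows (0.842), had 8 and 4 reads of its own in MLL4 KO, against 6 and 0 in WT, and PCDHA12 had 4 and 5, against 6 and 0. PCDHA7 had 1 read of its own in a single BAP1 KO library and none elsewhere, so the level of its full row, 0.834 RPKM, is that of the shared exons. PCDHA3, PCDHA6, PCDHA8 and PCDHA9 had no variable-exon read in any library.

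Most alpha variable-exon reads belonged to the C-type genes PCDHAC1 and PCDHAC2, which are known to be transcribed more uniformly in neurons than the other alpha genes. The PCDHAC1 exon had 3.46 and 3.89 CPM in MLL4 KO, against 2.33 and 0.344 CPM in WT, a log2 fold change of 1.54 ± 0.54 (adjusted p = 0.0745). Its WT libraries lay far apart, and WT replicate 2 was below both BAP1 KO libraries. In BAP1 KO the PCDHAC1 exon had 0.447 and 0.534 CPM, against 2.66 and 2.08 CPM in control, and it fell by 2.25 ± 0.70 (adjusted p = 0.0473). The effects of the knockouts on this exon differed by 3.79 ± 0.88 (adjusted p = 0.0222). In the full row, which also holds the shared exons, PCDHAC1 did not pass in BAP1 KO (log2 fold change -0.86 ± 0.28, adjusted p = 0.0576). The effects on that full row differed by 1.67 ± 0.39 (adjusted p = 0.0219). The PCDHAC2 exon had 7.58 and 6.35 CPM in MLL4 KO, against 5.20 and 2.50 CPM in WT (log2 fold change 0.89 ± 0.33, adjusted p = 0.0824). It had 4.79 and 3.21 CPM in BAP1 KO, against 5.01 and 4.69 CPM in control (-0.27 ± 0.34, adjusted p = 0.610).

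The gamma cluster, whose rows also share their constant exons, passed the test in neither knockout. The constant exons had 3.80 and 5.30 CPM in MLL4 KO, against 4.50 and 5.41 CPM in WT, so the groups overlapped (log2 fold change -0.14 ± 0.23, adjusted p = 0.691). They had 10.3 and 10.7 CPM in BAP1 KO, against 8.66 and 7.77 CPM in control, a log2 fold change of 0.36 ± 0.21 (adjusted p = 0.253). Both BAP1 KO libraries lay above both control libraries for 22 of 22 gamma rows, where 29.7% of the 22694 genes with a read did so. The gamma rows share these exons and so count as little more than 1 measurement. No full-length gamma row was called in either knockout by edgeR on all 8 libraries, or by limma-voom or DESeq2. By edgeR 0 of these 22 rows stood at an unadjusted p below 0.05 in both comparisons. The variable-exon row of PCDHGA8 is described below. In the fit on the 4 BAP1 KO and control libraries alone, PCDHGA10 was called higher in BAP1 KO (adjusted p = 0.0350), where 6660 of 16020 tested genes were called.

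Among the gamma variable exons, that of PCDHGA10 held the largest share of reads. The PCDHGA10 exon held 46.0% to 61.4% of all gamma variable-exon reads in a library and was the most abundant in each of the 8 libraries. Its mean was 2.35 RPKM, against 0.349 RPKM for PCDHGB7 and 0.320 RPKM for PCDHGB2, the next in order. PCDHGA7 was lowest at 0.00114 RPKM, with a single read in 1 control library. PCDHGA10, PCDHGB7 and PCDHGB2 encode isoforms of the A and B types, which differ in their extracellular recognition surfaces.

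The PCDHGA10 exon had 4.01 and 5.15 CPM in MLL4 KO, against 6.20 and 6.59 CPM in WT, a log2 fold change of -0.49 ± 0.21 (adjusted p = 0.127). It had 12.1 and 10.0 CPM in BAP1 KO, against 8.46 and 8.33 CPM in control, a log2 fold change of 0.40 ± 0.20 (adjusted p = 0.173). The groups did not overlap in either comparison, and neither passed the test. The PCDHGB2 exon had 0.273 and 0.934 CPM in MLL4 KO, against 0.194 and 0.656 CPM in WT. It had 1.98 and 1.46 CPM in BAP1 KO, against 1.21 and 1.26 CPM in control. The PCDHGB7 exon had 0.751 and 0.783 CPM in MLL4 KO, against 0.931 and 1.12 CPM in WT. It had 1.44 and 2.07 CPM in BAP1 KO, against 1.57 and 1.15 CPM in control. Neither passed in either comparison, with adjusted p between 0.447 and 0.761.

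One further gamma exon, that of PCDHGA8, was named after its values were seen. It had 6 and 2 reads in BAP1 KO, against 15 and 26 in control, with a log2 fold change of -2.21 ± 0.62 (adjusted p = 0.0280). The control libraries were the only ones at or above the limit for testing (0.320 CPM before scaling, in at least 2 libraries), so the exon entered the test through the group in which it is high, and this p gives no support to a fall. It had 2 and 5 reads in MLL4 KO, against 2 and 3 in WT (log2 fold change 0.07 ± 1.03, adjusted p = 0.971). Control was also above WT for this exon, by 2.82 ± 0.69 (adjusted p = 0.00870), and the same limit bears on that value. In the full rows, which hold mostly shared exons, PCDHGA8 had a log2 fold change of 0.28 ± 0.21 in BAP1 KO (adjusted p = 0.380).

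**Figure D3:**
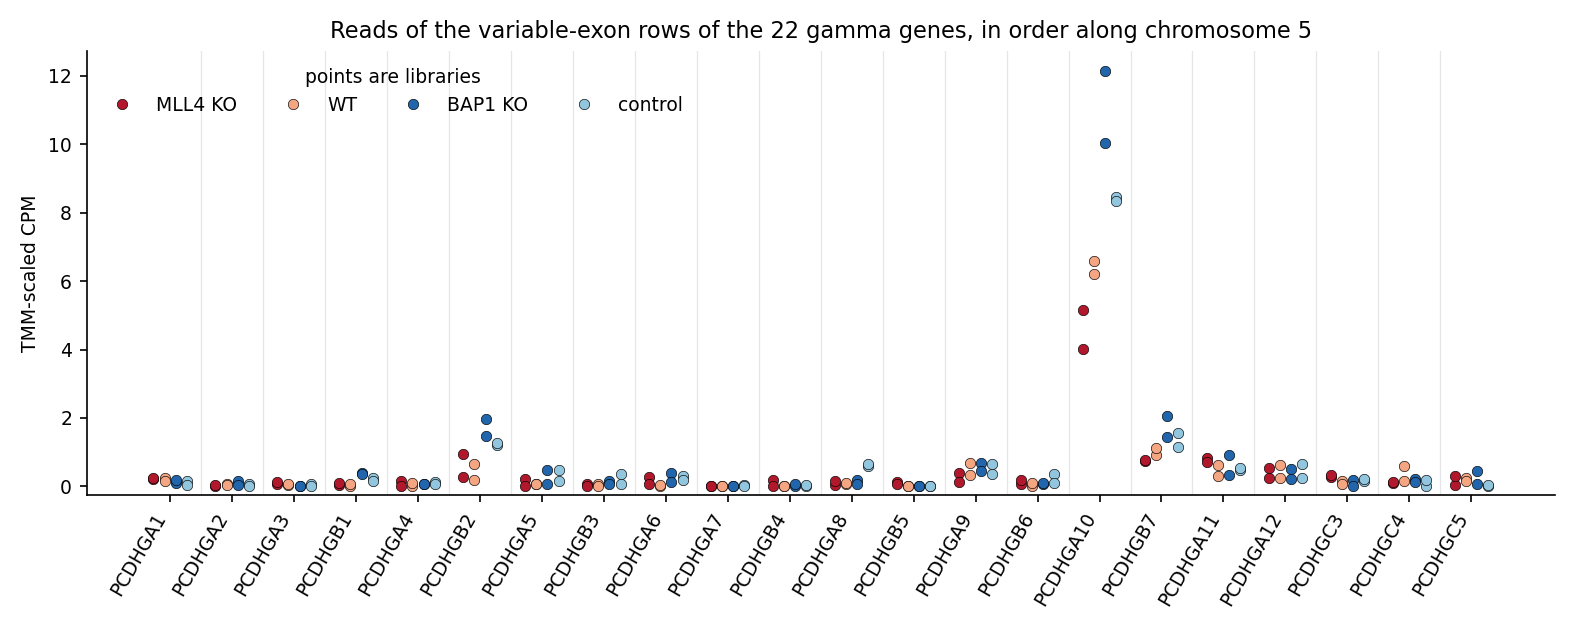
Level of the variable exon of each of the 22 gamma genes (TMM-scaled CPM, y axis) in each library, in order along chromosome 5 (x axis), with points as libraries in the order MLL4 KO, WT, BAP1 KO and control. PCDHGA10 lies between 4.01 and 12.1 CPM, and every other gamma exon is at or below 2.07 CPM.

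The groups without a knockout differed for the gamma cluster. The gamma constant exons had 8.66 and 7.77 CPM in control, against 4.50 and 5.41 CPM in WT, and were 0.72 ± 0.22 higher on the log2 scale (adjusted p = 0.0295). In the full rows 21 of 22 gamma members were higher in control, by 0.55 for PCDHGA10 up to 0.80 for PCDHGB2 and PCDHGA8, and PCDHGC4 missed the threshold (0.63 ± 0.23, adjusted p = 0.0512). In this comparison 39.6% of all tested genes were called (19.9% higher and 19.7% lower), and the 21 rows share their constant exons. With rows restricted to the variable exon, PCDHGA8 was the single member called. Without either control replicate no member was called, and without WT replicate 1 the calls were alpha rows and no gamma row. Each such fit leaves 1 library in a group, and calls over all tested genes also fell without a control replicate. No alpha or beta member was called between control and WT on all 8 libraries. The line, its preparation and the knockout series cannot be told apart in this contrast.

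The genes that flank and separate the clusters on 5q31 were examined beside the members, as 24 tested genes of a list of 25. In MLL4 KO 3 of the 24 were higher and 2 lower, where 9.13% and 10.0% of all tested genes were, so both counts are near the background. The median log2 change was -0.04, against 0.00 over all tested genes. The splicing factor gene IK fell by 0.52 ± 0.12 (adjusted p = 0.0225), the mitochondrial histidyl-tRNA synthetase gene HARS2 fell by 0.48 ± 0.13 (adjusted p = 0.0339), and APBB3 rose by 1.01 ± 0.28 (adjusted p = 0.0390). In BAP1 KO 4 of the 24 were higher and 0 lower, where 12.1% and 10.4% of all tested genes were, with a median of 0.22, against 0.01 over all tested genes. NDUFA2, a subunit of respiratory complex I, rose by 0.79 ± 0.14 (adjusted p = 0.00432), RELL2 by 0.86 ± 0.17 (adjusted p = 0.00679) and HDAC3, a histone deacetylase, by 0.39 ± 0.11 (adjusted p = 0.0343). FCHSD1 rose in both, by 0.53 ± 0.16 in MLL4 KO (adjusted p = 0.0460) and by 0.68 ± 0.16 in BAP1 KO (adjusted p = 0.0144). TAF7, which lies between the beta and gamma clusters, had a log2 change of -0.07 ± 0.16 in MLL4 KO and -0.01 ± 0.16 in BAP1 KO and was called in neither.

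**Figure D4:**
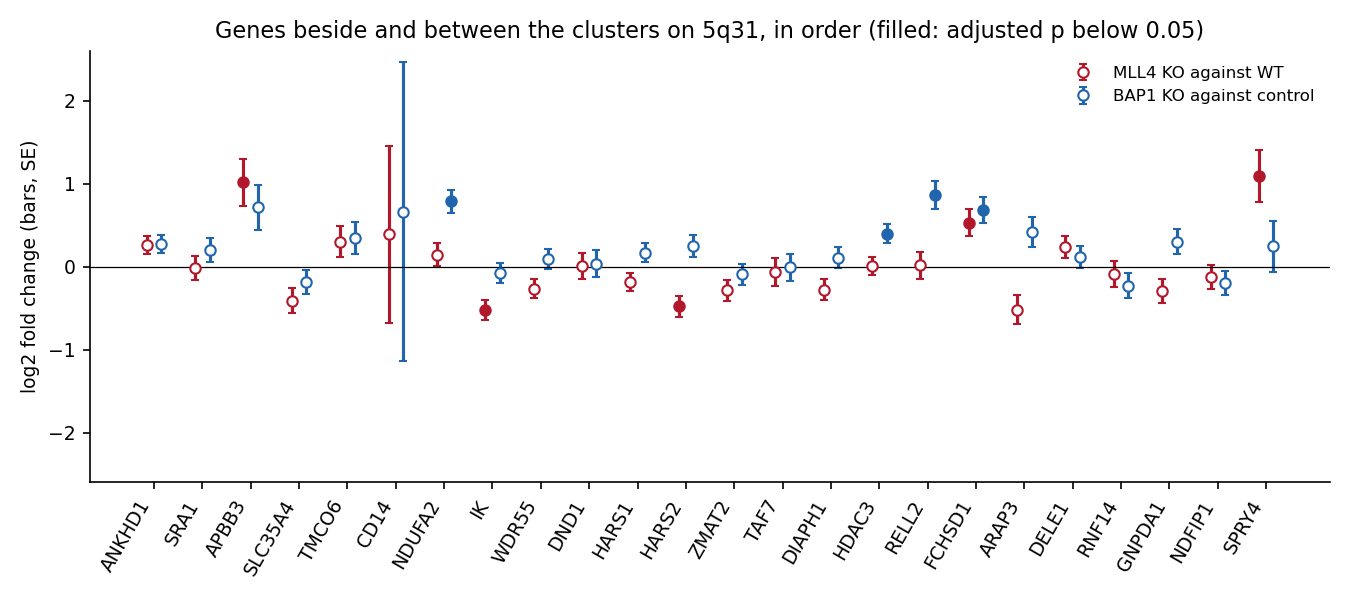
Log2 fold change (y axis, bars are SE) of the 24 tested genes beside and between the clusters, in their order along the chromosome (x axis), for MLL4 KO against WT in red and BAP1 KO against control in blue, with filled points for an adjusted p below 0.05. TAF7 lies near 0 in both comparisons, and the called genes lie on both sides of 0 in MLL4 KO and above 0 in BAP1 KO.

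Factors known to act on protocadherin promoters (CTCF, cohesin and its loader, DNA methylation enzymes, SMCHD1 and SETDB1 partners) were counted over a list of 26, all tested. In MLL4 KO 0 of 26 were higher and 6 lower, where 9.13% and 10.0% of all tested genes were, and the median was -0.24. The cohesin subunit gene SMC3 had 67.4 and 55.4 CPM in MLL4 KO, against 113 and 181 CPM in WT, and fell by 1.26 ± 0.20 (adjusted p = 0.00942). UHRF1, which recruits the maintenance DNA methyltransferase, had 156 and 94.2 CPM in MLL4 KO, against 250 and 306 CPM in WT, and fell by 1.15 ± 0.22 (adjusted p = 0.0159). TRIM28, the corepressor KAP1, fell by 0.52 ± 0.13 (adjusted p = 0.0277), and ZNF143, a factor found at CTCF-bound promoters, fell by 0.70 ± 0.18 (adjusted p = 0.0279).

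In BAP1 KO 5 of the 26 were higher and 1 lower, where 12.1% and 10.4% of all tested genes were, with a median of 0.21. The cohesin regulator gene PDS5B rose by 0.92 ± 0.16 (adjusted p = 0.00446), the SETDB1 partner gene ATF7IP by 0.75 ± 0.14 (adjusted p = 0.00648) and the maintenance methyltransferase gene DNMT1 by 0.65 ± 0.13 (adjusted p = 0.00726). DNMT3B, a de novo DNA methyltransferase, had 20.5 and 22.2 CPM in BAP1 KO, against 44.9 and 40.3 CPM in control, and fell by 1.00 ± 0.21 (adjusted p = 0.0105). Whether any of these changes bears on the protocadherin values was not tested.

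Of 20 binding partners and processing enzymes, all tested, 6 were higher and 1 lower in MLL4 KO (median 0.16), where 9.13% and 10.0% of all tested genes were. In BAP1 KO 3 were higher and 1 lower (median 0.04), where 12.1% and 10.4% of all tested genes were, so the higher count is near the background. Members of the WAVE actin-regulatory complex, which binds clustered protocadherin tails, were among them. WASF1 rose by 0.69 ± 0.13 in MLL4 KO (adjusted p = 0.0142) and by 0.63 ± 0.13 in BAP1 KO (adjusted p = 0.00939). ABI2 rose by 0.52 ± 0.12 in MLL4 KO (adjusted p = 0.0200) and by 1.26 ± 0.12 in BAP1 KO (adjusted p = 0.000222), and CYFIP2 rose by 0.46 ± 0.13 in MLL4 KO (adjusted p = 0.0352) and by 0.40 ± 0.13 in BAP1 KO (adjusted p = 0.0461). ADAM10, a protease that cleaves these proteins, rose by 0.59 ± 0.15 in MLL4 KO (adjusted p = 0.0261). PTK2B, a kinase inhibited by protocadherin tails, fell by 1.00 ± 0.17 in BAP1 KO (adjusted p = 0.00322).

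Of 13 protocadherins outside the clusters, 9 had too few reads for the test. PCDH12 had 4.55 and 4.88 CPM in MLL4 KO, against 2.40 and 1.28 CPM in WT, and rose by 1.38 ± 0.30 (adjusted p = 0.0184). PCDH1 had 58.1 and 65.4 CPM in BAP1 KO, against 109 and 107 CPM in control, and fell by 0.81 ± 0.22 (adjusted p = 0.0315). PCDH7 had no read in BAP1 KO, against 59.9 and 59.6 CPM in control, and was at 98.7 and 107 CPM in MLL4 KO, against 81.9 and 76.1 CPM in WT. Of 12 tested classical and atypical cadherins, CELSR3 rose (0.94 ± 0.20, adjusted p = 0.0182) and FAT1 fell (by 0.72 ± 0.21, adjusted p = 0.0425) in MLL4 KO. That is 1 higher and 1 lower, where 9.13% and 10.0% of all tested genes were, so both counts are near the background. In BAP1 KO 2 of the 12 were higher and 1 lower, where 12.1% and 10.4% of all tested genes were. CDH24 rose by 1.55 ± 0.17 (adjusted p = 0.000482), CELSR2 rose by 0.58 ± 0.15 (adjusted p = 0.0248) and CDH1, the epithelial E-cadherin, fell by 2.27 ± 0.38 (adjusted p = 0.00763). The BAP1 KO libraries differed for CDH1, at 28.0 and 70.2 CPM, against 233 and 239 CPM in control.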

How the data were processed

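Counts and RPKM values per RefSeq transcript were deposited by the authors for 8 poly(A) RNA-seq libraries, per the file headers. The deposited read counts are whole numbers without normalization, and the deposited RPKM values scale them to transcript length and sequencing depth. Named in the submitters' processing notes are hg38, bcl2fastq, Bowtie2, STAR and SICER 1.1, without roles. The sources used here give neither the counting tool nor the strand setting. In every library more transcript rows held 2 reads than 1, so mates may be counted singly, and intervals, which cover counting error only, may be too narrow.

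Transcripts were matched to genes through the RefSeq table of GRCh38.p14. The 605 rows without a symbol (0.230% to 0.252% of counts) were left out, and the row with the highest mean count stood for each of 28105 genes. Genes were kept by filterByExpr (16831), scaled by TMM and fitted in R 4.3.3 with edgeR 4.0.16 (quasi-likelihood, robust, a mean per group, 8 libraries). Tests were two-sided, with Benjamini-Hochberg adjustment over all tested genes and a threshold of 0.05. SE was taken as log2 fold change divided by the root of F. Floors use 3 reads per library, and intervals of count ratios are exact at 95%. Alternatives were DESeq2 1.42.0, limma-voom (limma 3.58.1), upper-quartile and RLE scaling, other filters and transcript rows, 4-library fits, a replicate block and leaving out each library. Variable-exon rows, the crossed block and the legacy dispersion were chosen after seeing the data.

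Named are members called in a comparison, the 3 members per cluster with the highest mean RPKM, up to 4 called genes per list and comparison by p, and the targeted genes. TAF7, PCDHAC1, PCDHAC2, PCDHGA8 in the knockouts, CYFIP2 in MLL4 KO and beta genes below the threshold were named after their values were seen. The members and lists were chosen with earlier results of these data known. The fit was tested on simulated data.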

Additional observations from a re-analysis of the deposited data

Results flagged for a closer look

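For 2 members the MLL4 KO effect differed from the BAP1 KO effect when the difference itself was tested with edgeR. For PCDHB10 the difference was 9.07 on the log2 scale (adjusted p = 0.0237): it had 0.706 and 0.512 CPM in MLL4 KO, against 0 and 0.156 CPM in WT. It had no read in BAP1 KO, against 0.431 and 0.205 CPM in control. PCDHB10 entered the test through its MLL4 KO libraries, in which it is high, so its call does not add support. For PCDHB13 the difference was 4.05 (adjusted p = 0.0378): it had 1.50 and 0.873 CPM in MLL4 KO, against 0.388 and 0.188 CPM in WT. It had 0.255 and 0 CPM in BAP1 KO, against 0.431 and 0.590 CPM in control. The knockouts have separate comparison groups, and these groups differ in many genes. Whether that bears on the difference was not tested.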

How the results depend on the processing

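Of 74 log2 changes followed over the alternatives (42 of members, 32 of called list genes), 4 turned direction in at least 1 alternative and none of the list genes did. PCDHGA8 in BAP1 KO was -2.21 with the shortest row and with the variable-exon row, and in MLL4 KO 0.076 and 0.070 with these rows. Leaving out each library gave -0.70 to 0.86 for PCDHB9 in MLL4 KO, -0.37 to 0.11 for PCDHGA8 in MLL4 KO and -2.16 to 2.61 for the difference of effects of PCDHB15. Changes of PCDHAC1 and PCDHAC2 were not followed. The number of members called also moved. For MLL4 KO against WT (3 called), DESeq2, the filter at 1 CPM in 4 libraries and the 4-library fit called 0, with 4, 2 and 4 members at an unadjusted p below 0.05; limma-voom, summed transcript rows and the legacy dispersion called 1; leaving out a library gave 0 to 15. DESeq2 returned no adjusted p for PCDHB10 and PCDHB15 there. For BAP1 KO against control (1 called), the stricter filter, which tests no beta gene, and summed rows called 0, with 11 and 6 members at an unadjusted p below 0.05; DESeq2, limma-voom, the shortest row, variable-exon rows and the legacy dispersion called 2; the 4-library fit called 14; leaving out a library gave 0 to 2. For the difference of effects (2 called), upper-quartile scaling called 4, no filter called 5, the stricter filter 0 (14 at an unadjusted p below 0.05), summed rows and the legacy dispersion 1; leaving out a library gave 0 to 16. For control against WT (21 called), the shortest row called 2, variable-exon rows 1, and leaving out a library gave 0 to 22. Except where the construction shows it, the cause was not tested.

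Differences between the replicates of a group correlated across 16831 genes at r = -0.13 for MLL4 KO with WT and 0.0029 for BAP1 KO with control. With a single difference per group, these values cannot decide whether same-numbered samples were paired. With the replicate number as a block, 0 members were called for MLL4 KO, 1 for BAP1 KO, 0 for the difference of effects and 15 for control over WT, and 4 and 18 members stood at an unadjusted p below 0.05 where 0 were called. The crossed block called 2, 1, 2 and 20.

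PCDHB13 kept its MLL4 KO call in 8 of 20 alternatives, PCDHB14 in 7 of 20, PCDHB15 in 12 of 19, and PCDHB9 its BAP1 KO call in 15 of 20. With 18 to 384 beta reads per library, 11 of 16 beta genes had too few reads to enter the test. The 13 alpha rows and most gamma rows repeat the same shared reads, so their counts of calls weigh 1 measurement many times.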
